A study of Caenorhabditis elegans with 14 samples.

Results

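Autophagy genes were followed through 14 whole-worm expression arrays of Caenorhabditis elegans. The set held 8 genes, chosen by name: unc-51, bec-1, atg-9, atg-18, atg-7, lgg-1, lgg-2 and sqst-1. Probe sets that the platform annotation assigns to 1 gene alone were used, which gave 12 probe sets for the 8 genes, of 22548 probe sets and 17118 genes measured. No probe set shared a member with another gene. Each of bec-1, atg-18, lgg-2 and sqst-1 had 2 probe sets, and the other members had 1. A gene's value is the mean log2 ratio of its probe sets.

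All arrays carried total RNA of wild-type N2 animals, grown in synchrony at 15 °C to the L4 stage, the last larval stage. For the 5 sham and 5 microwave arrays a shared culture was split and kept at 26 °C in transmission cells during 2.5 h, either without a field or under continuous microwaves that deposited 5 to 40 mW per kg in the worms, and each array pooled RNA of 3 exposure runs. The other 4 arrays were titled heat control (2) and heat shock (2), and the temperature and time of that treatment are not given in the sources used here. Nothing else, such as an allele or a drug, distinguished the groups. The deposited values were linear ratios, with every sham value exactly 1, so a microwave value was read as the ratio to the sham array of its pair, and a heat shock value as the ratio to the mean of the 2 heat controls. Absolute levels were therefore unknown, the genes could not be ranked by abundance, and tissue markers could not show which tissues the RNA came from. Precision was set by the number of arrays.

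Autophagy encloses cytoplasm in a double membrane, the autophagosome, and delivers it to lysosomes. UNC-51 is the kinase that starts the process, and BEC-1 belongs to the lipid kinase complex that makes phosphatidylinositol 3-phosphate on the forming membrane. ATG-9, known from yeast and mammals as a transmembrane protein of vesicles that feed the membrane, and ATG-18, which binds that lipid, act next. ATG-7 is the activating enzyme that prepares LGG-1 and LGG-2, the worm's ubiquitin-like proteins of the Atg8 family, for attachment to the membrane. SQST-1 is the p62 receptor that ties ubiquitinated cargo to Atg8 proteins and is itself degraded with it. In worms the pathway clears germ granule proteins from embryonic cells and paternal mitochondria from the fertilised egg, and a mild heat shock is known to raise transcripts of several of these genes through the heat shock factor HSF-1.

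The direction of the heat comparison rests on the labels, and the classical heat-induced genes ran against them. In the arrays labelled heat shock the ratio of hsp-16.2 was 0.0321 and 0.0366, that of hsp-16.41 was 0.0221 and 0.0445, and that of hsp-70 was 0.11 and 0.0878, where heat is known to induce all of these chaperone genes. Their fitted decreases were 29.0-fold, 31.6-fold and 10.1-fold (limma, adjusted p = 0.00232, 0.00248 and 0.00232). Every direction given for the heat arrays follows the labels and would be opposite if they, or the ratios, were inverted.

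In the arrays labelled heat shock, transcripts of both Atg8 genes, the cargo receptor, atg-18 and bec-1 were lower than in the heat controls. Among the 8 genes, 5 fell past an adjusted p of 0.05 (limma, 2 against 2 arrays, Benjamini-Hochberg over all genes), none rose and 3 were not called. Over all 17118 genes 14.8% fell, 15.2% rose and 30% passed in either direction. The median log2 fold change of the members was -0.83, against 0.13 over all genes. The drops were unequal, from 3.89-fold for atg-18 to 1.44-fold for bec-1. In whole-worm RNA a lower ratio cannot separate fewer cells of a type from less RNA per cell.

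The Atg8 genes were lower in both arrays labelled heat shock. For lgg-1, the log2 ratio was -0.05 and 0.05 in the heat controls and -1.47 and -0.87 in the arrays labelled heat shock. The groups did not overlap, but the latter arrays lay 0.60 apart, the widest gap between them among the 8 genes. The fitted fold change of lgg-1 was 2.25-fold lower (log2 -1.17 ± 0.22 SE, n = 2 per group, 95% interval -1.74 to -0.61, adjusted p = 0.0187). Its only probe set, like those of unc-51 and atg-7, carries a mark in its identifier for probes that can match several transcripts or genes. For lgg-2, the controls stood at -0.06 and 0.06 and the arrays labelled heat shock at -1.40 and -1.59. Here the arrays labelled heat shock were close to each other and far below the controls. lgg-2 was 2.81-fold lower (log2 -1.49 ± 0.13 SE, n = 2 per group, 95% interval -1.83 to -1.15, adjusted p = 0.00325). Its 2 probe sets gave -1.72 and -1.26, and each passed on its own in the fit over probe sets (limma adjusted p = 0.00209 and 0.00814). The intervals of the 2 genes overlapped, and whether they differed was not tested.

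The receptor gene sqst-1 stood at 0.14 and -0.16 in the heat controls and at -1.10 and -1.19 in the arrays labelled heat shock. The 2 low arrays lay 0.09 apart, nearer to each other than the 2 controls were. It was 2.20-fold lower (log2 -1.14 ± 0.15 SE, n = 2 per group, 95% interval -1.51 to -0.76, limma adjusted p = 0.00703). Both of its probe sets were lower, at -0.83 and -1.45 (adjusted p = 0.0119 and 0.00519). The probe set with the smaller change is the one with such a mark.

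The lipid-binding gene atg-18 had the lowest ratios of the set. It stood at -0.11 and 0.10 in the heat controls and at -1.83 and -2.10 in the arrays labelled heat shock, so the gap between the groups was far wider than that between the replicates of either. The fitted change was 3.89-fold lower (log2 -1.96 ± 0.15 SE, n = 2 per group, 95% interval -2.36 to -1.56, limma adjusted p = 0.00274), and 244 of the 17118 genes had a lower value. Its 2 probe sets, at -2.12 and -1.80, gave the same direction. bec-1, of the lipid kinase complex, stood at 0.12 and -0.14 in the controls and at -0.52 and -0.55 in the arrays labelled heat shock. That is 1.44-fold lower (log2 -0.52 ± 0.14 SE, n = 2 per group, 95% interval -0.88 to -0.17, adjusted p = 0.0435). Its 2 probe sets differed in size, at -0.78 for the marked one and -0.27 for the other, and the second did not pass alone (adjusted p = 0.175). The bec-1 call was also lost with the trend on gene length removed (adjusted p = 0.0772), with the replicate number as a block (adjusted p = 0.0738) and without heat control replicate 1 (adjusted p = 0.103).

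The remaining 3 members did not pass. The ratios of atg-9, the vesicle protein gene, were -0.23 and 0.20 in the heat controls and -0.67 and -0.37 in the arrays labelled heat shock (log2 fold change -0.51 ± 0.20, adjusted p = 0.108). The activating enzyme gene atg-7 stood at -0.25 and 0.21 against -0.37 and -0.33 (log2 fold change -0.33 ± 0.18, adjusted p = 0.217), so that one control lay close to the arrays labelled heat shock. Without heat control replicate 1 both passed, at -0.72 for atg-9 and -0.56 for atg-7 (limma adjusted p = 0.0462 and 0.0456), whereas without heat control replicate 2 they stood at -0.295 and -0.10 (adjusted p = 0.268 and 0.62). The kinase gene unc-51 was the 1 member on the other side of 0, at -0.04 and 0.04 in the controls and 0.29 and 0.25 in the arrays labelled heat shock (log2 fold change 0.27 ± 0.12, 95% interval -0.03 to 0.56, adjusted p = 0.136). Its interval lay wholly above those of the 5 genes that fell. In the plot of the heat arrays the starting kinase gene thus lies above its controls, those of the activating enzyme, the vesicle protein and Beclin lie moderately below, and those of the lipid binder, the Atg8 proteins and the receptor lie furthest below.

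**Figure D1:**
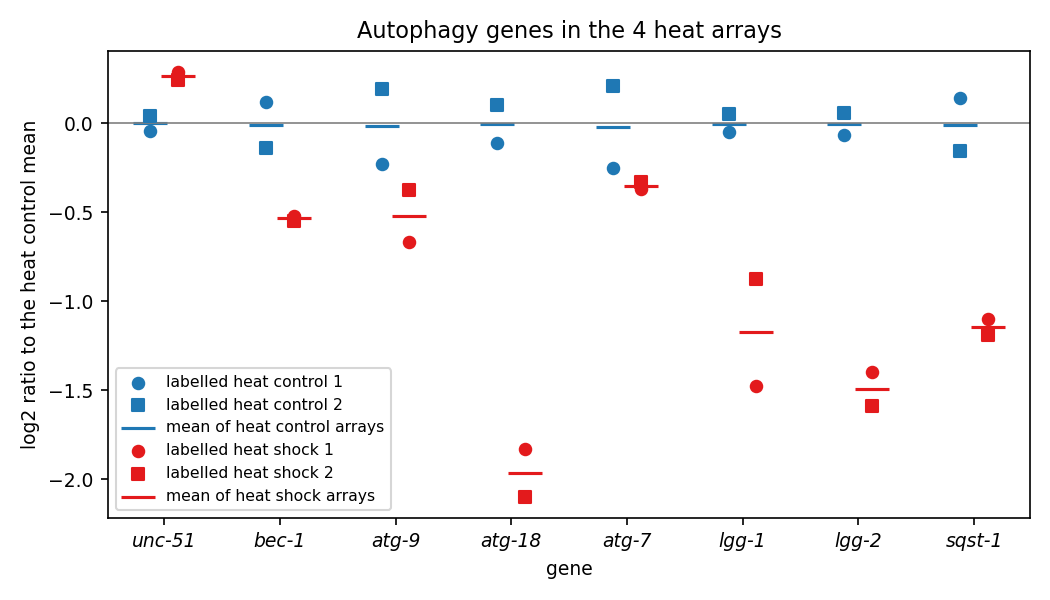
Log2 ratio to the heat control mean (y axis) of the 8 autophagy genes (x axis) in each of the 2 heat control arrays (blue) and the 2 arrays labelled heat shock (red); circles are replicate 1, squares replicate 2 and short lines the group means. Both red points lie below both blue points in 7 genes and above them in unc-51.

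In order of fitted value the genes ran atg-18, lgg-2, lgg-1, sqst-1, bec-1, atg-9, atg-7 and unc-51. The 95% intervals of each pair of neighbours in that order overlapped, so only wider steps in it are resolved. The interval of atg-18 lay wholly below those of sqst-1, bec-1, atg-9, atg-7 and unc-51. At 2-fold or more, atg-18, lgg-2, lgg-1 and sqst-1 passed as lower, against 7.98% of all genes. By the simpler measure of arrays that do not overlap, 7 of 8 members were lower and 1 was higher, where 27.1% of all genes were lower and 45.9% higher.

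Leaving out heat shock replicate 1 ended all 5 calls, and leaving out heat shock replicate 2 ended those of sqst-1 and bec-1. Without heat shock replicate 1, 0 of the 8 genes passed (limma; the lowest adjusted p was 0.0578, and 4 genes had an unadjusted p under 0.05). Over all genes 0 passed and 5094 had an unadjusted p under 0.05. The values themselves moved little then, with atg-18 at -2.09, lgg-2 at -1.59, sqst-1 at -1.18 and bec-1 at -0.54, while lgg-1 stood at -0.87. Without heat shock replicate 2, atg-18, lgg-1 and lgg-2 passed (adjusted p = 0.0459, 0.0459 and 0.0467) at -1.83, -1.47 and -1.39, while sqst-1 at -1.09 and bec-1 at -0.51 did not (adjusted p = 0.0725 and 0.181). A lone array is assumed in these fits to vary like the 2 controls. Quantile normalisation gave 0 calls by limma among the 8 genes and 0 among all genes, with 3 and 1505 at an unadjusted p under 0.05. It gives all 4 arrays the same spread, where as deposited the standard deviation over probe sets was 0.193 and 0.204 in the controls and 0.758 and 0.718 in the arrays labelled heat shock. atg-18 stood at -1.24 after it, lgg-2 at -0.93, lgg-1 at -0.75, sqst-1 at -0.64 and bec-1 at -0.30. The arrays labelled heat shock had medians about 0.10 log2 units above the controls. With every array centred on its median the same 5 members fell, and over all genes 16.9% fell and 9.9% rose. The mean log2 difference between 3' and 5' probe sets of 5 worm control transcripts is a sign of RNA integrity. It lay between -0.02 and 0.05 in all 4 heat arrays. These values are relative to the heat control mean, so RNA degraded alike in all 4 arrays would give the same values.

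In the microwave comparison no member passed the test. Of the 8 genes 0 passed an adjusted p of 0.05 (limma, 5 pairs, Benjamini-Hochberg over all genes), as did 0% of all 17118 genes, and the lowest adjusted p among the members was 0.872. At an unadjusted p under 0.05 there was 1 member, unc-51, against 3.34% of all genes. The fitted log2 fold changes of the members ran from -0.007 for lgg-1 to 0.23 for atg-18, with a median of 0.12 against -0.003 over all genes. The 95% intervals of all 8 lay within 2-fold of no change. The p-values measure the spread of the ratio between pairs, each of a pool of exposed and a pool of sham worms.

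Pair 1 stood apart from the other pairs. In that pair all 8 members were above 0, with a median of 0.47, while 47.9% of all genes were above 0 and their median was -0.01. Values above 0 there were not particular to the members. The median in pair 1 was 0.32 over the genes of the 4 related lists and 0.24 over the tissue markers, both described below. By marker list it ran from -0.20 for sperm and -0.035 for hypodermis to 0.47 for germ line and 0.51 for oocyte and eggshell. In the other pairs the median of the members lay between -0.07 and 0.05. Pair 1 also had the widest spread, a standard deviation of 0.387 over probe sets against 0.101 to 0.164 in the others, and a 3' minus 5' difference of -0.74 against -0.13 to 0.03. Being a ratio, that difference can stem from the microwave or the sham array. The part of RNA integrity in the values of pair 1 was not tested.

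Among the early-acting genes, unc-51 had log2 ratios of 0.49, 0.07, 0.33, -0.08 and 0.18 in pairs 1 to 5. It was above 0 in 4 of 5 pairs, and its mean was 0.20 ± 0.08 (SE, n = 5, 95% interval 0.004 to 0.39, adjusted p = 0.872), or 0.13 without pair 1. Its unadjusted p of 0.0467 was the lowest of the set. The vesicle protein gene atg-9 stood at 0.35, 0.04, 0.19, -0.13 and 0.19, also above 0 in 4 of 5 pairs, with a mean of 0.13 ± 0.07 (adjusted p = 0.872), or 0.07 without pair 1. Both genes were thus lowest in pair 4. They were also the longest members, at 8500 bp for unc-51 and 10274 bp for atg-9. Over all genes with a length, the Spearman correlation of the ratio with gene length was -0.316 in pair 4. In pairs 1, 2, 3 and 5 it was 0.27, -0.016, 0.297 and 0.18. The part of gene length in the pair 4 values was not tested. For bec-1 the ratios were 0.50, 0.03, -0.10, -0.005 and 0.04, a mean of 0.09 ± 0.09 that became -0.009 without pair 1.

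atg-18 had the widest spread across pairs. Its log2 ratios were 1.41, -0.04, -0.02, -0.22 and 0.02, so that 1 array stood 2.65-fold above its sham and the other 4 stood within 0.22 of it. The mean of 0.23 ± 0.22 (SE, n = 5, 95% interval -0.28 to 0.74, adjusted p = 0.872) became -0.06 without pair 1. In pair 1 its 2 probe sets gave 0.70 and 2.12, and 99.8% of all genes had a lower value than the gene's mean. The other probe set pairs of a gene also differed there. Those of lgg-2 gave 0.21 and 1.45, those of sqst-1 gave -0.15 and 0.36, and those of bec-1 gave 0.67 and 0.33.

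The genes of the conjugation step lay furthest apart in pair 1. The activating enzyme gene atg-7 stood at 0.44, 0.11, 0.01, -0.05 and 0.07, a mean of 0.12 ± 0.08 (adjusted p = 0.872) and 0.03 without pair 1. The Atg8 gene lgg-1 stood at 0.03, 0.04, -0.19, 0.08 and 0.006, with a mean of -0.007 ± 0.06 and an interval of -0.14 to 0.12, the narrowest of the set together with that of sqst-1. The other Atg8 gene, lgg-2, stood at 0.83, 0.00, -0.09, 0.03 and -0.06, with a mean of 0.14 ± 0.13, which became -0.03 without pair 1. Thus lgg-1 stayed near its sham in pair 1 while lgg-2 stood 1.78-fold above. The receptor gene sqst-1 stood at 0.10, 0.11, -0.09, -0.10 and 0.06, with a mean of 0.02 ± 0.06 and an interval of -0.11 to 0.14 (adjusted p = 0.95).

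**Figure D2:**
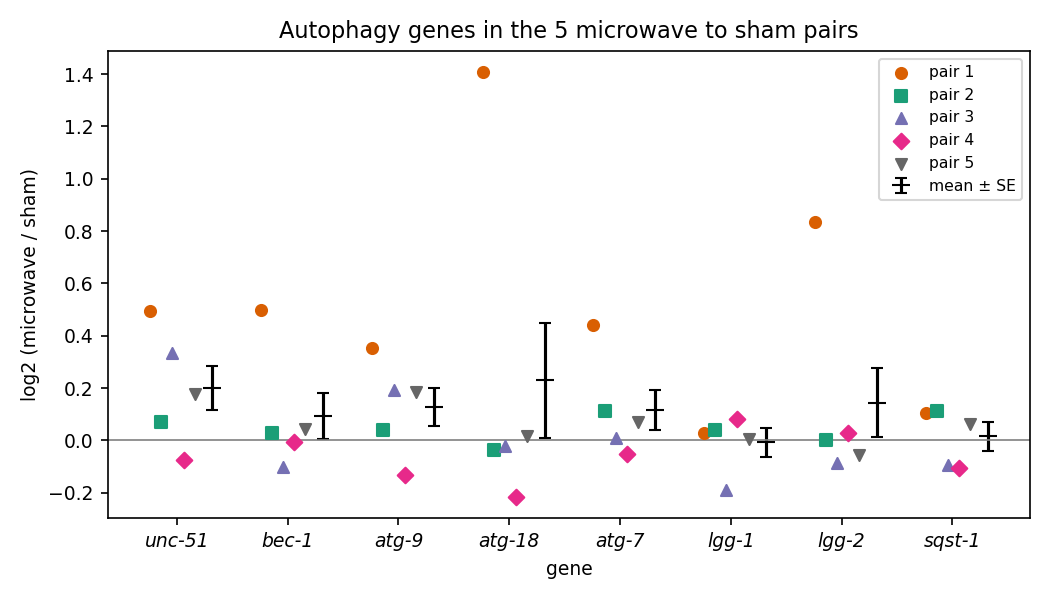
Log2 ratio of microwave to sham (y axis) of the 8 autophagy genes (x axis) in each of the 5 pairs (coloured symbols), with the mean and its standard error from limma (black). Pair 1 (orange) is the highest point in 6 of the 8 genes, with atg-18 at 1.41 and lgg-2 at 0.83, and the other pairs lie between -0.22 and 0.33.

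Counting signs, 0 of the 8 members were above 0 in 5 of 5 pairs, against 2.6% of all genes, and 0 were below 0 in all of them, against 3.33%. The mean was above 0 in 7 of 8 members, against 48.6% of all genes. That excess was not particular to the members: 51 of 63 genes of the related lists and 51 of 67 tissue markers, described below, were also above 0. Without pair 1 the mean was above 0 in 3 of 8 members, namely unc-51, atg-9 and atg-7, against 45.7% of all genes.

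Set side by side, the microwave and heat values lay furthest apart in atg-18 and the Atg8 genes. The log2 fold change of atg-18 was 0.23 for microwave and -1.96 for heat, that of lgg-2 was 0.14 and -1.49, that of sqst-1 was 0.02 and -1.14, and that of lgg-1 was -0.007 and -1.17. In unc-51 the values were 0.20 and 0.27, neither of which passed. Without pair 1 the microwave means of atg-18, lgg-2 and unc-51 were -0.06, -0.03 and 0.13. The microwave values of atg-18 and lgg-2 above 0 thus rested on pair 1. The comparisons used different control arrays, and the difference between them was not tested.

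**Figure D3:**
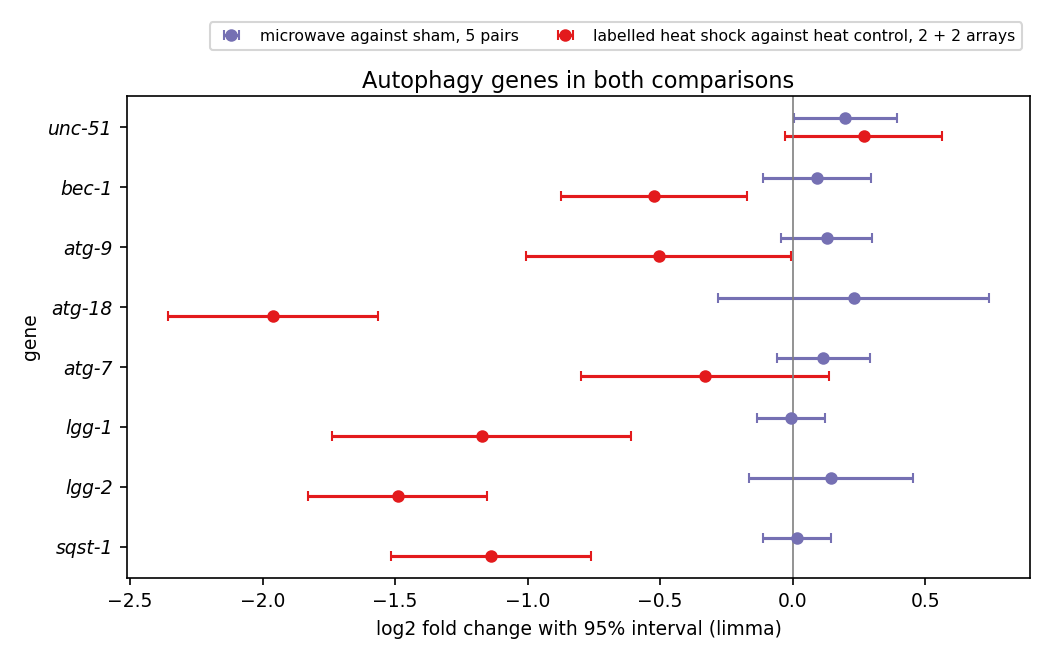
Fitted log2 fold change (x axis) with its 95% interval from limma for each autophagy gene (y axis), for microwave against sham in 5 pairs (purple) and for the arrays labelled heat shock against heat control, 2 of each (red). The red intervals of atg-18, lgg-1, lgg-2, sqst-1, bec-1 and atg-9 lie below 0, of which atg-9 did not pass after adjustment, and 7 of the 8 purple intervals include 0.

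Genes related to the members were read from 4 lists chosen from background knowledge, with 63 of 66 genes measured. The counts by direction below do not take account of whether a gene promotes or restrains autophagy. Earlier results of these data were known when the lists were chosen. In the arrays labelled heat shock 25 of the 63 fell, 5 rose and 33 did not pass; their median log2 fold change was -0.36, where that of all genes was 0.13. The share that fell was 39.7%, against 14.8% of all genes, and the share that rose was 7.94%, against 15.2%. In the microwave comparison 0 of the 63 passed (limma; the lowest adjusted p was 0.872, and 2 genes had an unadjusted p under 0.05), and the median was 0.07. Without heat shock replicate 1 the count of calls in the heat arrays was 0 of 63 by limma (29 had an unadjusted p under 0.05). It was 4 when heat shock replicate 2 was left out instead.

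Of 18 other genes of the core machinery 9 fell, 3 rose and 6 did not pass, with a median of -0.35. The falling share of 50% compares with 14.8% of all genes, while the rising share of 16.7% lay near the 15.2% of all genes. epg-4, an endoplasmic reticulum protein needed for autophagosomes to mature, was 4.60-fold lower (log2 -2.20 ± 0.13 SE, n = 2 per group, limma adjusted p = 0.00232), at -2.08 and -2.32 in the arrays labelled heat shock. atg-13, the partner of UNC-51 in the starting complex, fell, at -1.26 ± 0.18 (adjusted p = 0.00941), in contrast to unc-51 at 0.27. epg-8, the Atg14-like partner of BEC-1, fell, at -0.99 ± 0.12. atg-16.2, which helps to place Atg8 proteins on the membrane, fell, at -1.07 ± 0.21. The 3 genes that rose were lgg-3, the Atg12-like modifier, at 0.97 ± 0.14, atg-2, known in yeast and mammals as a lipid transfer protein, at 0.84 ± 0.14, and epg-3, the worm VMP1, at 0.56 ± 0.12. These 3 were named after their values were seen.

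Among 8 measured receptors, adaptors and substrates of selective autophagy 3 fell, 0 rose and 5 did not pass, with a median of -0.27. The falling share of 37.5% compares with 14.8% of all genes, and the rising share of 0% with 15.2%. In either direction 37.5% passed, near the 30% of all genes. allo-1, the adaptor for paternal organelles, fell, at -1.45 ± 0.25 (limma adjusted p = 0.0154), with -1.14 and -1.79 in the arrays labelled heat shock. The parkin gene pdr-1 fell, at -1.38 ± 0.13, and the mitophagy receptor gene dct-1 fell, at -0.72 ± 0.13. Like sqst-1, all of these had both arrays labelled heat shock below both controls, as did 27.1% of all genes. They were named because they passed as lower in the same arrays, so this is no separate evidence.

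Of 13 regulators 6 fell, 1 rose and 6 did not pass, with a median of -0.36. The shares were 46.2% lower and 7.69% higher, where 14.8% and 15.2% of all genes were. The Rag GTPase genes ragc-1 and raga-1, which link amino acids to the TOR kinase, fell, at -1.70 ± 0.12 and -1.50 ± 0.11 (limma adjusted p = 0.00248 and 0.00259). mtm-3, a phosphatase gene that acts on the lipid ATG-18 binds, fell, at -0.88 ± 0.12. mxl-3, a transcription factor gene of lysosomal lipase control, fell, at -2.43 ± 0.54 (adjusted p = 0.0288), but its controls stood at 0.61 and -1.07. The gene that rose was pha-4, a FoxA transcription factor required for longevity on restricted diet, at 0.52 ± 0.11; it was named after its value was seen.

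Of 24 lysosomal genes 7 fell and 1 rose, while 16 were not called, and the median was -0.38. Of these genes 29.2% were lower and 4.17% higher, against 14.8% and 15.2% of all genes. In either direction 33.3% passed, near the 30% of all genes. The cathepsin B-like protease gene cpr-3 fell, at -2.65 ± 0.67 (limma adjusted p = 0.0391), with controls at 0.69 and -1.38. The aspartyl protease gene asp-4 fell, at -1.48 ± 0.17, and cln-3.2, of the CLN3 family, at -1.22 ± 0.20 (adjusted p = 0.0133). Another cathepsin B-like gene, cpr-5, rose, at 0.90 ± 0.19 (adjusted p = 0.0239).

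**Figure D4:**
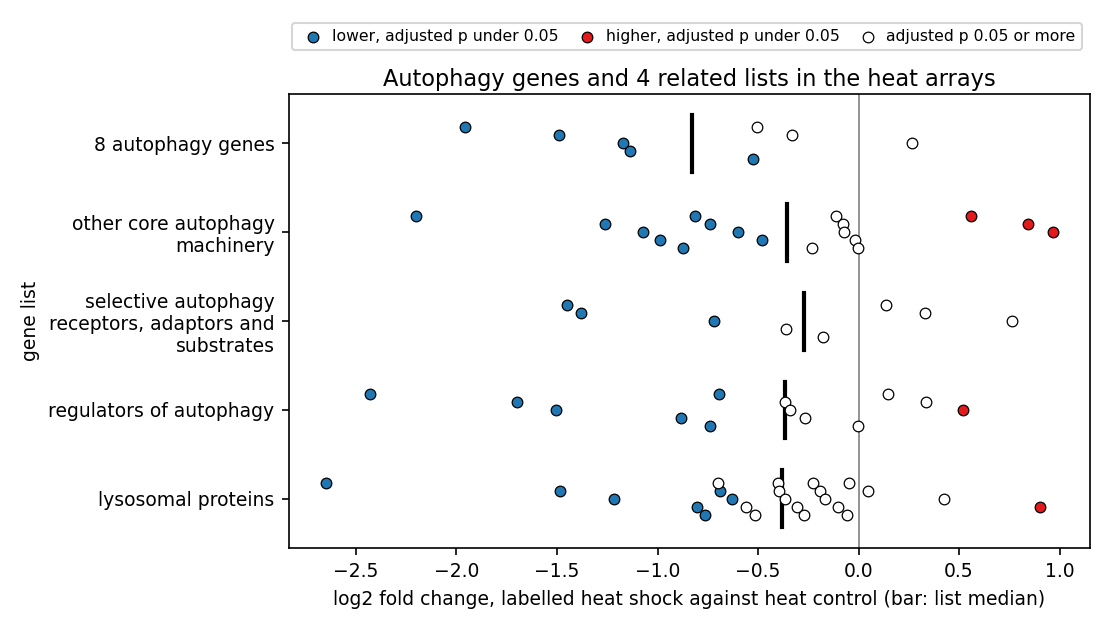
Log2 fold change of arrays labelled heat shock against heat control (x axis) for the 8 autophagy genes and the 63 genes of 4 related lists (rows), each point a gene. Filled blue points passed as lower, filled red points as higher, open points did not pass, and the bars are list medians, from -0.83 for the autophagy genes to -0.27 for receptors, adaptors and substrates.

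Over 7 lists of tissue markers 26 of 67 genes passed in the heat arrays. That is 38.8%, against 30% of all genes, with 28.4% lower and 10.4% higher, against 14.8% and 15.2%. Of 10 body wall muscle markers 6 fell and 1 rose, of 10 intestinal markers 5 fell and 0 rose, of 9 hypodermal markers 3 fell and 1 rose, of 9 sperm markers 4 rose and 1 fell, of 10 neuronal markers 2 fell and 0 rose, of 10 germ line markers 2 fell and 1 rose, and of 10 oocyte and eggshell markers 0 passed (limma). The median log2 ratio of the muscle markers was -0.77 and -0.63 in the arrays labelled heat shock against 0.003 and -0.008 in the controls, and that of the intestinal markers was -0.59 and -0.55 against -0.09 and 0.08. The oocyte and eggshell markers set the 2 controls apart, at -0.79 and 0.51. The part of tissue composition in the autophagy values was not tested. In the microwave comparison 0 markers passed in any of the 7 marker lists (limma, where 4 markers had an unadjusted p under 0.05).

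The genes whose pattern over the 9 microwave and heat arrays was most like that of lgg-1 were txdc-9, F25H2.4 and dhs-3, with root mean square log2 differences of 0.07, 0.08 and 0.09. For sqst-1 the nearest were pgm-2, gars-1 and tmyb-1, at 0.06 each.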

How the data were processed

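The authors deposited 1 table of linear ratios for 14 Affymetrix arrays. Per the labels' protocols, signals came from GCOS with the MAS 5 algorithm, while RMA appears per the submitters' processing notes; which made the deposited ratios, and the genome build, are not given in the sources used here. From the values, the sham columns hold only 1 (0 exceptions) and the 2 heat control columns sum to 2 within 0.001; the baselines of the other columns were inferred from this. The labels describe the heat arrays with the text of the microwave exposure. The 10 array information sheets held no measurement and no date, so no batch could be tested.

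The 77 control probe sets were left out. Of 22548 probe sets 20766 had 1 gene, 887 several and 895 were not listed in the platform annotation. Symbols were updated by gene identifier through the RefSeq gene table of WBcel235, and no coordinates or sequences were used. Gene means of log2 ratios were fitted with limma 3.58.1 in R 4.3.3 over 17118 genes: the mean of the 5 pair ratios against 0 (4 residual degrees of freedom), which holds the pairing that the labels give, and heat shock minus heat control (2 residual degrees of freedom, no block). Variances were moderated by eBayes, and two-sided p-values with Benjamini-Hochberg adjustment over all genes were called under 0.05. No floor was set. The fits were run on simulated data with independent normal noise, of equal variance in all arrays for a gene. That does not cover unequal noise or an outlying array such as pair 1.

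Members, lists and alternatives were chosen with earlier results of these data known. Besides the members, up to 4 called genes per list with the largest change, 3 heat shock genes and 3 nearest neighbours each of lgg-1 and sqst-1 were named. Of the list genes pink-1 and asp-2 had no single-gene probe set, and atg-11 was not matched. Among the tissue markers ssp-9 and col-10 shared their probe sets with another gene. Alternatives were quantile normalisation, median centring, leaving out probe sets that can match several transcripts or genes, probe set fits, robust eBayes, array weights, subtracting a lowess fit against gene length, a replicate block and leaving out each pair or array.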

Additional observations from a re-analysis of the deposited data

Results flagged for a closer look

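Over the 5 microwave pairs 4 members had 1 pair far from the other 4, measured as the gap to the nearest pair over the whole range. This share was 0.873 for lgg-2, 0.857 for atg-18 and 0.757 for bec-1, each with pair 1 highest, at log2 ratios of 0.83, 1.41 and 0.50. For lgg-1 it was 0.719, with pair 3 lowest at -0.19. The critical value for 5 values is 0.71, and chance passes it in about 1 of 20 groups. Over all genes 11.2% passed it.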

How the results depend on the processing

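In the heat comparison the count of 5 autophagy genes ranged from 0 to 6 when each array was left out, and the count of 30 genes in the related lists from 0 to 28, with 0 in both without heat shock replicate 1. Quantile normalisation gave 0 autophagy genes. Without probe sets that can match several transcripts or genes, 3 of the 5 autophagy genes still measured and 15 of 42 list genes passed, where fewer genes can be tested (4 and 16 of these had passed before); bec-1 then stood at -0.27 (adjusted p = 0.169). The heat replicate numbers were not taken to pair the samples, since the labels give no pairing beyond a number. The difference between the controls and that between the arrays labelled heat shock correlated at -0.06 over genes. With the replicate number as a block 4 autophagy genes and 21 list genes passed, the lost member being bec-1 (limma adjusted p = 0.0738). Over all genes 3299 passed against 5129. Centring, robust eBayes and the fit on probe sets kept 5 members called, and removal of the length trend kept 4. In the microwave comparison 0 members passed under any of the 12 alternatives (limma), with at most 2 at an unadjusted p under 0.05. Signs changed there, also that of atg-18, the member with the largest value: lgg-1 stood at 0.026 with the length trend removed, and leaving out each pair moved lgg-1 between -0.03 and 0.039, bec-1 between -0.009 and 0.141, atg-18 between -0.065 and 0.341, lgg-2 between -0.028 and 0.202 and sqst-1 between -0.008 and 0.046. Signal over background was unknown, so how far dim probes limit these values could not be seen.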
